A study of Cucumis sativus with 2 samples.

Results

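The PRE small helix-loop-helix proteins and their partner growth factors of the bHLH family were described in bending fruit of cucumber (Cucumis sativus) from the rows of the deposited read table whose Arabidopsis homologue is 1 of 10 named loci: PRE1 (AT5G39860), PRE2 (AT5G15160), PRE3 or TMO7 (AT1G74500), PRE4 (AT3G47710), PRE5 (AT3G28857), PRE6 (AT1G26945), HBI1 (AT2G18300), IBH1 (AT2G43060), UNE10 (AT4G00050) and PIF4 (AT2G43010). The rule found 8 cucumber copies among the 20700 genes of the table, 4 PRE copies and 4 partner copies, which belong to 6 of the 10 loci. No row used here carried the locus of PRE1, PRE2, PRE4 or HBI1, and these were not analysed here. The loci were chosen on the ventral to dorsal read ratios of these same libraries, known beforehand for PRE5 and UNE10, so the ratios of the copies are a description and carry no test. Names are those of the Arabidopsis homologue, and the table gives PIF4 under its other symbol SRL2.

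The study sequenced poly(A) RNA of fruit 2 days after anthesis, with 1 library for each side, ventral and dorsal. No genotype, treatment or number of fruits per library was given in the sources used here, and there were no replicates, so every difference below lacks a replicate check. The ventral library held 21863715 reads and the dorsal library 11893394. The comparison sets the sides of a bending fruit against each other. In bulk tissue fewer cells of a type and less RNA per cell cannot be told apart.

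PRE proteins are very small helix-loop-helix proteins that lack the basic region needed to bind DNA. In Arabidopsis they promote cell elongation by pairing with inhibitory HLH proteins such as IBH1, which otherwise block DNA-binding activators such as HBI1. Brassinosteroids, gibberellin and auxin raise PRE transcripts there, and light enters the same network through the phytochrome-interacting factors, the group to which PIF4 belongs and to which UNE10 is close.

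The copies did not behave as 1 block. PRE5 and 1 of the UNE10 copies were far higher in the dorsal library, PRE6 was slightly higher there, PIF4 was slightly higher in the ventral library, and the other UNE10 copy was close to equal. Genes with a sum of 20 reads or more are called measured, and 5 of the 8 copies were. Reads were scaled by the trimmed mean of M values (TMM), by which ventral depth was 2.16 times dorsal depth. A copy is said to stand apart when its scaled ratio is at least 2-fold and the 95% counting interval excludes equality. By that description 2 of 5 measured copies stood apart as dorsal-high and 0 as ventral-high, beside 11.5% and 13.2% of all 17462 measured genes. Because the members were chosen with these ratios known, nothing is read from that count. The median log2 ratio of the 5 copies, ventral over dorsal, was -0.71, and that of all measured genes was 0.01.

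PRE5 (Csa1G032990, chromosome 1) had 4 reads in the ventral library and 110 in the dorsal library. The deposited level per length was 0.46 RPKM (reads corrected for transcript length and library depth) ventrally and 23.01 RPKM dorsally. PRE5 thus sat near the bottom of the table on the ventral side, above 12.1% of genes, and in its upper part on the dorsal side, above 73.9% of genes. The scaled ratio was 59.4-fold higher in the dorsal library, with a log2 ratio of -5.89 and a counting interval from -7.79 to -4.50. The interval is wide because the ventral value rests on 4 reads, and its bound nearest to equality was still 22.5-fold. Only 3 of the 17462 measured genes had a lower ratio, genes without ventral reads included. PRE5 was chosen with its ratio known, so this rank is a description only.

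PRE6, known in Arabidopsis as KIDARI and as a partner of the light-signalling HLH protein HFR1, had 2 copies. The copy on chromosome 5 (Csa5G635950) had 104 ventral and 79 dorsal reads, or 11.87 and 16.29 RPKM. It was 1.64-fold higher in the dorsal library, with a log2 ratio of -0.71 and an interval from -1.15 to -0.27, which is short of 2-fold. The copy on chromosome 6 (Csa6G404200) had 2 ventral and 0 dorsal reads, and TMO7 (Csa1G045430, chromosome 1), a mobile HLH protein of embryonic root formation in Arabidopsis, had 0 ventral reads and 1 dorsal read. At 0 reads the true value may reach a floor of 3 reads, equal to 0.127 TMM-scaled CPM ventrally and 0.273 dorsally, so neither copy was detectable above that floor and no ratio is given for them. Over the 4 PRE copies the libraries held 110 ventral and 190 dorsal reads, a 3.73-fold scaled excess in the dorsal library [-2.25 to -1.55 on the log2 scale]. Without PRE5 and TMO7 the excess was 1.61-fold.

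**Figure D1:**
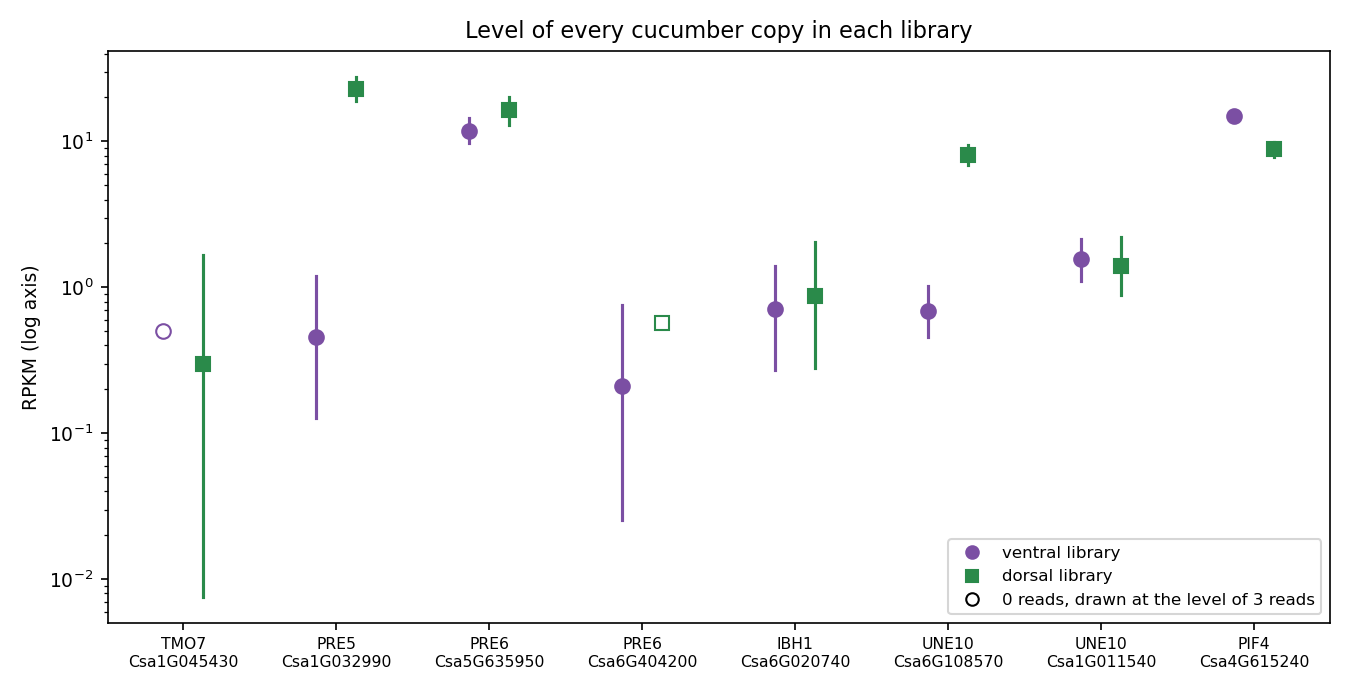
RPKM of each of the 8 cucumber copies (log axis) in the ventral library (circles) and the dorsal library (squares). Bars are 95% Poisson intervals of the read count and open symbols mark 0 reads, drawn at the level that 3 reads would give. PRE5 goes from 0.46 RPKM ventrally to 23.01 dorsally and UNE10 Csa6G108570 from 0.69 to 8.11, while PRE6 Csa5G635950, UNE10 Csa1G011540 and PIF4 have levels within 2-fold of each other in the 2 libraries.

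The main PRE copies exchanged places between the sides. Their exonic lengths, worked out from reads over RPKM, were 391 bases for PRE5 and 396 bases for PRE6 Csa5G635950, so their reads can be set against each other directly. PRE5 gave 4 of 108 reads of the pair in the ventral library, a share of 3.70% (exact binomial interval 1.02% to 9.21%). In the dorsal library it gave 110 of 189 reads, 58.2% (50.8% to 65.3%). The dorsal odds of a read coming from PRE5 were 35.8 times the ventral odds, with an exact conditional interval from 12.8 to 139. This odds ratio needs no library scaling, and the pair has nearly the same length. It uses the PRE5 reads that were known when the loci were chosen, so it is a description only. The copies differ in gene structure, since exons made up 82.8% of the listed gene length in PRE5 and 30.2% in PRE6 Csa5G635950.

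IBH1 (Csa6G020740, chromosome 6), the inhibitor that PRE proteins bind in Arabidopsis, had 7 ventral and 5 dorsal reads and was below the read minimum. Its levels of 0.71 and 0.87 RPKM were low on both sides. The log2 ratio of -0.63 had an interval from -2.50 to 1.37, so a difference of 2-fold either way was not detectable at this depth.

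UNE10, a bHLH factor close to the phytochrome-interacting factors that was named from an Arabidopsis screen for embryo sacs that are not fertilized, had 2 measured copies with unlike values. UNE10 Csa6G108570 (chromosome 6) had 26 ventral and 168 dorsal reads, or 0.69 and 8.11 RPKM. It was 14.0-fold higher in the dorsal library, with a log2 ratio of -3.80 and an interval from -4.46 to -3.20. UNE10 Csa1G011540 (chromosome 1) had 39 ventral and 20 dorsal reads, or 1.56 and 1.41 RPKM. Its log2 ratio was -0.15, with an interval from -0.96 to 0.71, and the sign turned to 0.09 when libraries were scaled by total reads. The first copy therefore supplied 26 of 65 UNE10 reads ventrally, 40.0% (28.0% to 52.9%), and 168 of 188 dorsally, 89.4% (84.0% to 93.4%). The odds ratio between the libraries was 12.4, with an interval from 6.06 to 26.3. UNE10 too was chosen with its ratio known, so this odds ratio is a description only. Taken over both copies, UNE10 reads were 6.25-fold higher in the dorsal library after scaling.

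PIF4 (Csa4G615240, chromosome 4), a DNA-binding factor that drives elongation in shade and warmth in Arabidopsis and is inhibited there by phytochrome B, had the most reads of the 8 copies, 789 ventral and 257 dorsal. Its level was 15.01 RPKM ventrally and 8.83 RPKM dorsally. The scaled ratio was 1.42-fold higher in the ventral library, with a log2 ratio of 0.51 and an interval from 0.30 to 0.72, short of 2-fold. UNE10 Csa6G108570 and PIF4 together gave 815 ventral and 425 dorsal reads, of which the UNE10 copy took 3.19% (2.09% to 4.64%) ventrally and 39.5% (34.9% to 44.4%) dorsally. For PRE6 Csa5G635950 against PIF4 the shares of PRE6 were 11.6% (9.62% to 13.9%) and 23.5% (19.1% to 28.4%), an odds ratio of 2.33 with an interval from 1.66 to 3.26. These copies have 396 and 2384 exonic bases, where the trend of log2 ratios with length, described below, was at -0.35 and 0.36. That trend was not removed from this odds ratio or from the shares of other pairs of unlike length. PRE5 and UNE10 Csa6G108570, the copies with the dorsal excess, also differed in its size. PRE5 took 4 of their 30 ventral reads, 13.3% (3.76% to 30.7%), and 110 of their 278 dorsal reads, 39.6% (33.8% to 45.6%).

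**Figure D2:**
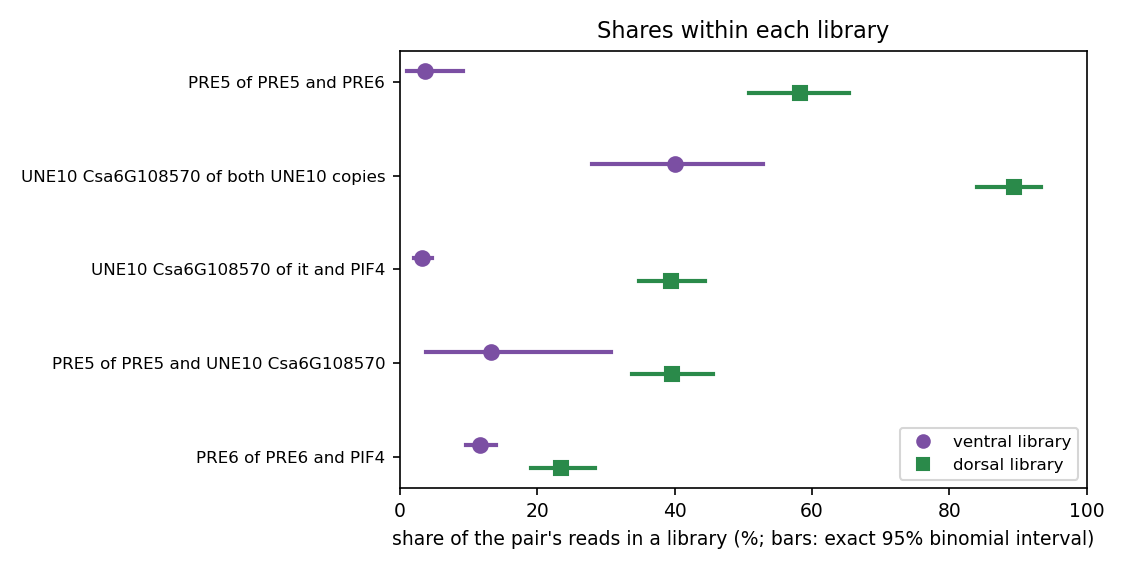
Share of the reads of a pair of copies that came from the first named copy (%), in the ventral library (circles) and the dorsal library (squares), with exact 95% binomial intervals that cover counting error only. PRE5 takes 3.70% of the PRE pair ventrally and 58.2% dorsally. The first named copy of each pair is the one with the lower ventral to dorsal ratio, which fixes the direction in all 5 pairs.

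Ordered by level per length, the ventral library had PIF4 (15.01 RPKM) and PRE6 Csa5G635950 (11.87 RPKM) on top, followed at a distance by UNE10 Csa1G011540 (1.56 RPKM). Among the neighbours below it, IBH1 and UNE10 Csa6G108570 did not differ beyond counting error, with a ratio of 0.97 and an interval from 0.36 to 2.30. UNE10 Csa6G108570 and PRE5 did not either, at 1.50 with an interval from 0.52 to 5.91. The dorsal library had PRE5 (23.01 RPKM) on top, 1.41-fold above PRE6 Csa5G635950 (1.05 to 1.91), and PRE6 was 1.85-fold above PIF4 (1.42 to 2.39). PIF4 and UNE10 Csa6G108570 did not differ beyond counting error dorsally, at 1.09 with an interval from 0.89 to 1.33. UNE10 Csa6G108570 was 5.63-fold above the other UNE10 copy there (3.53 to 9.45). The trend with length was not removed from these levels. PIF4 and PRE6 Csa5G635950, which changed order between the libraries, are of unlike length.

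**Figure D3:**
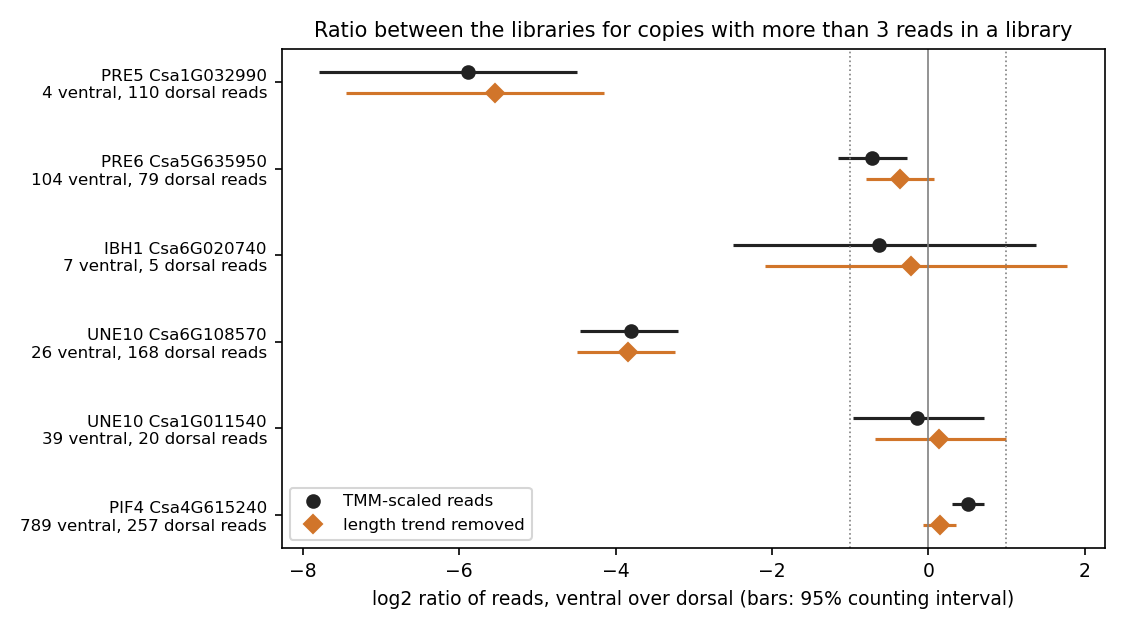
Log2 ratio of scaled reads, ventral over dorsal, for the 6 copies with more than 3 reads in a library, with 95% counting intervals; circles are TMM-scaled reads and diamonds the same ratios with the length trend removed. Dotted lines mark 2-fold. PRE5 at -5.89 and UNE10 Csa6G108570 at -3.80 lie beyond 2-fold either way, and the ratios of the other 4 copies lie between the dotted lines.

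The ratio between the libraries moved with exonic length across the table (Spearman correlation 0.39 over measured genes, which are not independent), and the members span from short PRE to long PIF4 transcripts. Genes with exonic lengths within 1.2 times that of PRE5 had a median log2 ratio of -0.39, and 22.8% of these 526 genes were dorsal-high. PRE5 had the lowest ratio among them, a rank that describes a copy chosen with its ratio known, as does that of UNE10 below. For UNE10 Csa6G108570, with 1693 exonic bases, the corresponding window held 4508 genes with a median of 0.03, of which 6.50% were dorsal-high, and 2 had a lower ratio. For PIF4, with 2384 exonic bases, the window median was 0.34, and 16.2% of 3148 genes were ventral-high. With the trend with length removed, PRE5 was at -5.55 and UNE10 Csa6G108570 at -3.84, still standing apart. PRE6 Csa5G635950 moved from -0.71 to -0.36, with an interval from -0.80 to 0.08 that takes in equality. PIF4 moved from 0.51 to 0.14, with an interval from -0.06 to 0.35 that does so too. The slight differences of PRE6 and PIF4 thus rest on leaving the trend in place, while those of PRE5 and UNE10 Csa6G108570 do not.

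**Figure D4:**
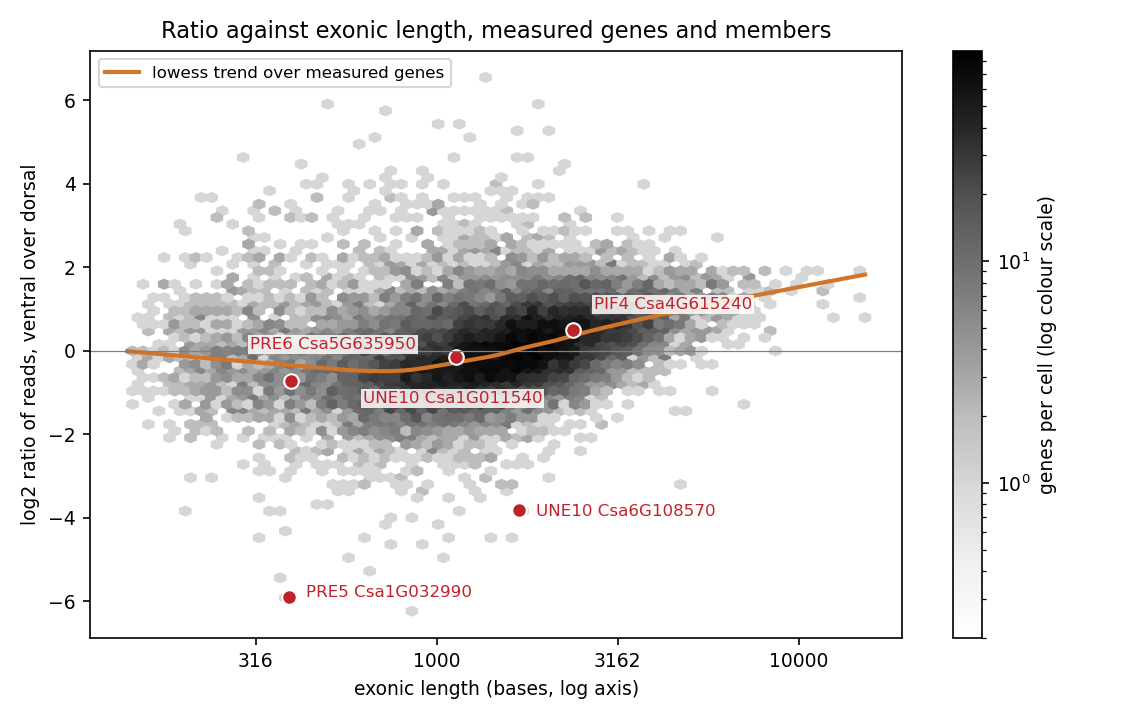
Log2 ratio of scaled reads, ventral over dorsal, against exonic length (bases, log axis) for measured genes with reads in both libraries (grey hexagons, darker for more genes on a log colour scale), with the lowess trend (line) and the 5 measured copies (filled circles). PRE6, UNE10 Csa1G011540 and PIF4 lie within the cloud of genes of like length, and PRE5 at -5.89 and UNE10 Csa6G108570 at -3.80 lie below it.

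Other genes of the network were taken from lists of Arabidopsis loci and named as those loci. Of the other phytochrome-interacting and related bHLH factors, 6 copies were measured, of which 2 were ventral-high and 0 dorsal-high, with a median log2 ratio of 0.41, beside 13.2% and 11.5% of all measured genes. With the length trend removed 1 copy was ventral-high and the median was 0.03. SPT (Csa6G491000), SPATULA, which shapes the carpel margin in Arabidopsis, had 52 ventral and 8 dorsal reads, 3.01-fold higher ventrally [0.51 to 2.88]. PIF1 (Csa7G333400), a repressor of seed germination in the dark, had 291 and 57 reads, 2.36-fold higher ventrally, and was at 0.77 on the log2 scale with the length trend removed, short of 2-fold. The dorsal excess of UNE10 Csa6G108570 was therefore not seen in these 6 copies, whose ratios ran from -0.59 to 1.59.

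Other growth-repressing HLH factors, relatives of IBH1, had 8 measured copies. Of these 2 were ventral-high and 0 dorsal-high, and the median was 0.50, beside 13.2% and 11.5% of all measured genes. The median was 0.84 with the length trend removed and 0.73 when libraries were scaled by total reads. AIF4 (Csa1G555600), from a family that binds PRE3 in Arabidopsis, had 158 ventral and 33 dorsal reads, 2.22-fold higher ventrally [0.60 to 1.74]. UPB1 (Csa2G047780), a repressor of peroxidase genes in the root, had 23 ventral reads and 0 dorsal ones. Against the floor of 3 reads it was 3.55-fold higher ventrally, and the interval for its log2 ratio, which began at 1.41, allows a smaller ratio. The other 6 copies ran from -0.84 to 0.53.

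The DNA-binding activators of the BEE, CIB and ACE groups, close relatives of HBI1, had 14 measured copies. Of these 1 was ventral-high and 2 were dorsal-high, with a median of 0.20, beside the same shares of all genes. Removing the length trend gave 2 and 2, with a median of 0.17, beside 11.0% and 8.30% of all genes. Both dorsal ones were homologues of CIB4, a bHLH protein of the cryptochrome-interacting group. CIB4 Csa1G361460 had 4 ventral and 25 dorsal reads, 13.5-fold higher dorsally [-5.74 to -2.22]. CIB4 Csa2G353500 had 27 and 70 reads, 5.60-fold higher dorsally [-3.18 to -1.83]. Both had fewer than 100 reads, so 0 activator copies were dorsal-high at that minimum. A further and far more abundant CIB4 copy (Csa4G645240), named here because it shares the locus, had 1179 and 789 reads and a log2 ratio of -0.53. CIB2 (Csa7G360030) went the other way, with 450 and 73 reads, 2.85-fold higher ventrally. As with UNE10, copies of 1 Arabidopsis locus had unlike ratios.

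Upstream regulators had a list median above that of all genes. Of 20 measured copies 5 were ventral-high and 2 dorsal-high, with a median of 0.80, beside 13.2% and 11.5% of all measured genes. With the length trend removed the numbers were 4 and 1 and the median 0.51, beside 11.0% and 8.30% of all genes. Scaling by total reads, which adds 0.23 to every log2 ratio, gave 11 ventral-high copies, and under it 19.1% of all measured genes (3336) were ventral-high and 7.35% dorsal-high. RGA, a DELLA repressor of gibberellin response that holds back PIF proteins, had 1487 ventral and 144 dorsal reads in Csa5G421370 and 1328 and 193 reads in Csa5G569350, 4.78-fold and 3.19-fold higher ventrally. ELF3 (Csa2G352370), a clock protein that represses PIF4 transcription in Arabidopsis, had 1360 and 196 reads, 3.21-fold higher ventrally. ARF6 (Csa6G524670), an auxin response factor that activates PRE genes in Arabidopsis, had 2761 and 535 reads, 2.39-fold higher ventrally, but was at 0.38 on the log2 scale with the length trend removed. The 2 copies higher in the dorsal library were both of HY5, a bZIP factor of light-grown development. HY5 Csa2G381650 had 1112 and 1407 reads, 2.73-fold higher dorsally, and HY5 Csa3G878800 had 355 and 440 reads, 2.68-fold, or -0.94 on the log2 scale with the length trend removed.

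Growth genes that Arabidopsis ties to this network, such as expansins, Aux/IAA genes and a gibberellin synthesis enzyme, had 13 measured copies, of which 2 were ventral-high and 2 dorsal-high, beside 13.2% and 11.5% of all measured genes. Their median of -0.19 became 0.04 when libraries were scaled by total reads and 0.05 with the length trend removed. GA20OX1 (Csa5G172270), a gibberellin 20-oxidase, had 82 ventral and 809 dorsal reads, 21.3-fold higher dorsally [-4.76 to -4.08]. IAA19 (Csa7G440550), an auxin response repressor, had 93 and 128 reads, 2.97-fold higher dorsally. EXPA8 (Csa6G014540), a wall-loosening expansin, had 821 and 151 reads, 2.52-fold higher ventrally. IAA29 (Csa2G381840) had 19 and 2 reads, 4.40-fold higher ventrally with a wide interval [0.09 to 5.28]. Its 2 dorsal reads are under the floor of 3, against which the ratio was 2.93-fold, and it no longer stood apart with a 99% interval or with RPKM and a pseudocount of 1.

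**Figure D5:**
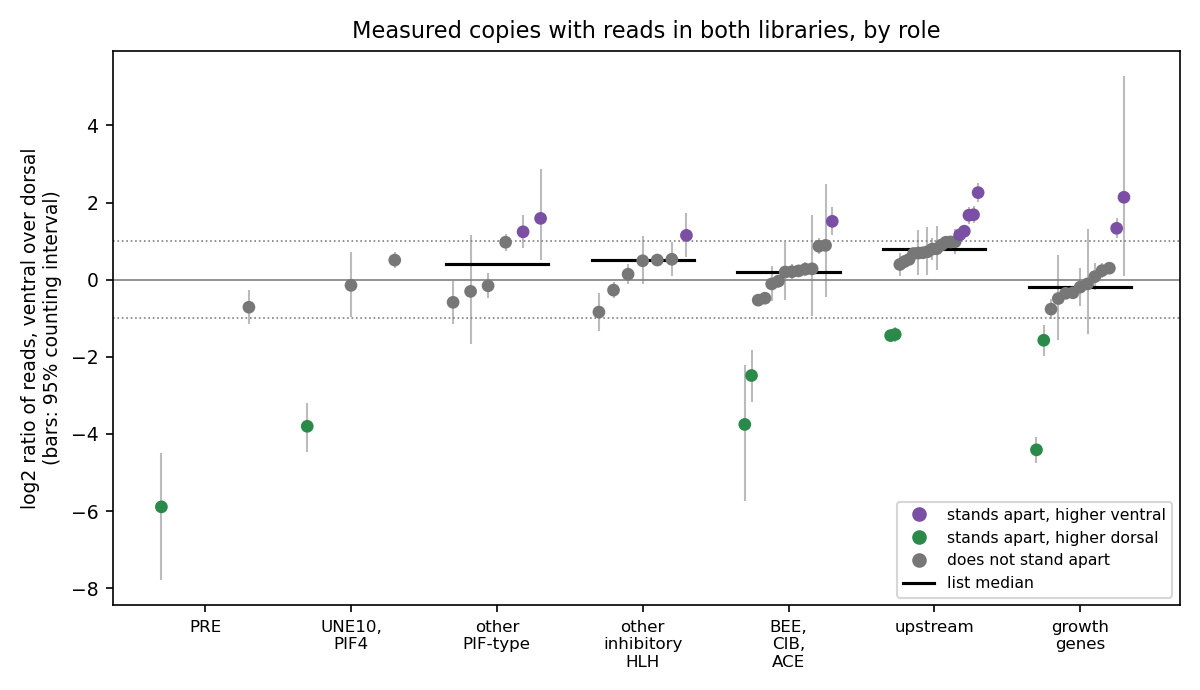
Log2 ratio of scaled reads, ventral over dorsal, of each measured copy with reads in both libraries, by role in the network, with 95% counting intervals; colours mark copies that stand apart and dotted lines mark 2-fold. Black bars are list medians over all measured copies, from 0.80 for upstream regulators to -0.19 for growth genes. PRE5 and UNE10 Csa6G108570 are the lowest points of the first 2 columns.

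Tissue markers were read beside these values, with 13.2% of all measured genes ventral-high and 11.5% dorsal-high. Of the carpel and fruit identity genes 6 copies, of AG, FUL, CRC, SEP1 and SEP3, were measured, and all but SEP3 had reads above the floor in both libraries. SEP3 (Csa6G095270), the ventral-high one, had 33 ventral reads and 1 dorsal read. Of the others 3 were dorsal-high, and the median over the 6 was -0.996, with levels summing to 287 scaled CPM ventrally and 517 dorsally. The ovule and seed coat markers were nearly silent, with 4 copies summing to 3.04 and 1.64 CPM. TT16 and 1 of 2 INO copies each had 1 ventral read and 0 dorsal reads. Only BEL1 (Csa5G152860) was measured, with 67 ventral and 16 dorsal reads and a log2 ratio of 0.96, short of 2-fold. Of the chlorenchyma markers 2 of 6 loci had a row, both higher in the dorsal library and summing to 1177 and 3744 CPM. Of 4 measured xylem markers 3 stood apart higher dorsally, with sums of 39.8 and 103 CPM. Epidermis markers, 8 measured copies, summed to 288 and 245 CPM, with 1 higher ventrally and 2 higher dorsally, and phloem markers, 9 measured copies, to 3844 and 5047 CPM, with 1 and 2. With the length trend removed, 11.0% of all measured genes were ventral-high and 8.30% dorsal-high. The marker counts then changed only for fruit identity, with 2 dorsal-high copies, and phloem, with 1. Summed levels of fruit identity, green tissue, xylem and phloem markers were higher dorsally, as were PRE5 and UNE10 Csa6G108570. Those of epidermis and ovule markers were higher ventrally. The fruit identity and phloem lists were mixed, each with 1 copy standing apart ventrally. The epidermis list was mixed too, with 1 copy standing apart ventrally and 2 dorsally, against the direction of its sum. The phloem sum is weighted by its copy with the most reads, PP2-A1 Csa7G056500, with 53538 ventral and 36240 dorsal reads. Over the 9 phloem copies the median log2 ratio was -0.29. It was -0.07 after correction for length and -0.06 under scaling by total reads, so the dorsal lean of phloem was slight outside its sum. The part of these tissues in the dorsal excess of PRE5 and UNE10 Csa6G108570 was not tested.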

How the data were processed

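The authors deposited whole-number read counts per gene without normalization, and RPKM values scaled for length and depth. Both cover 1 ventral and 1 dorsal library, per the file headers. The length implied by RPKM was shorter than the listed gene length in the member copies, at 30.2% of it in PRE6 Csa5G635950. TopHat2 and edgeR are named without versions in the submitters' processing notes. Genome build, counting tool and strand setting: not given in the sources used here. Libraries were made to keep strand, per the labels' protocols.

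Members, lists and the rule for named genes (every member copy, and up to 6 genes per list that stand apart) were chosen with earlier results of these data known. TMM factors came from edgeR 4.0.16 (R 4.3.3) over genes with at least 20 reads. Ratios carry exact conditional 95% intervals (scipy 1.17.1). Their code was run on simulated Poisson counts without a length trend, which cannot show how well the intervals hold in these libraries. Intervals and floors of 3 reads cover counting error only. Exonic length is reads over RPKM, with a constant set where implied length meets listed gene length. Its trend was removed by lowess (span 0.3, statsmodels 0.14.6). With 2 libraries no test, SD or likeness of pattern could be computed. Alternatives were other scalings, read minimums, intervals, thresholds and the RPKM ratio with pseudocounts of 0.1 and 1.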

Additional observations from a re-analysis of the deposited data

How the results depend on the processing

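No paired analysis was possible because there was a single library for either side. The number of member copies standing apart (2 dorsal-high and 0 ventral-high) was the same under 9 of the 10 alternatives run, and 3 and 0 with a threshold of 1.5-fold, where PRE6 Csa5G635950 joined. Over all genes, 2304 were ventral-high and 2005 dorsal-high. A threshold of 1.5-fold gave 4243 and 3997. Scaling by total reads gave 3336 ventral-high and 1283 dorsal-high genes, and the deposited RPKM with the fold threshold alone gave 3400 and 1175 with a pseudocount of 0.1 and 2507 and 924 with a pseudocount of 1. The log2 ratio of PRE5 ran from -5.91 to -4.04 and that of UNE10 Csa6G108570 from -3.84 to -2.43, each nearest to 0 with RPKM and a pseudocount of 1. PIF4 ran from 0.14 to 0.76. The alternatives for the lists of other genes were added after the data were seen. No gene named from the 5 network lists with reads in both libraries turned its direction in them. Tissue markers standing apart were recounted only with the length trend removed. Depth limits PRE5, with 4 ventral reads, and leaves IBH1, TMO7 and PRE6 Csa6G404200 without a usable ratio.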
